A study of Mus musculus with 6 samples.

Results

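The 9 genes of the mitochondrial pathway that builds iron-sulfur clusters described here are Nfs1, Lyrm4, Iscu, Glrx5, Isca1, Isca2, Iba57, Nfu1 and Bola3. They were picked by gene symbol from the deposited expression table, and all 9 were found among its 24537 genes. Both groups were immortalized mouse brown preadipocytes differentiated to brown adipocytes over 6 days. The 4CBA group received 4 mM 4-chlorobenzoic acid, an inhibitor of the coenzyme Q biosynthesis enzyme COQ2, from day 4 for 48 h by the labels, and the CTL group received vehicle (3 libraries each). The methods text gives a shorter exposure than the labels, and the labelled time is used here. Per the labels, the medium refresh time was 24 h in both groups. The cells are 1 immortalized line and carry no stated genetic difference between groups. The methods also state that independent replicates were pooled to prepare RNA, so every p-value rests on the variation among the 3 libraries of a group, part or all of which can be technical.

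Iron-sulfur clusters are small inorganic cofactors that carry electrons or hold substrates in enzymes of respiration, the citric acid cycle and DNA repair. In mitochondria, the cysteine desulfurase NFS1 with its partner LYRM4 releases sulfur, the cluster is built on the scaffold ISCU, and GLRX5 receives it from a chaperone. ISCA1, ISCA2 and IBA57 then convert it to the larger form, which NFU1 and BOLA3 help to place in lipoyl synthase and in respiratory chain subunits. Brown adipocytes are rich in mitochondria, and coenzyme Q takes up electrons that several cluster proteins deliver.

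Expression was given as RPKM, a read density scaled to transcript length and to the mapped reads of the library, so levels can be compared between genes for the 1 transcript listed per gene. In all, 6 of the 9 genes were lower in 4CBA libraries, 1 was higher and 2 were not called, by limma on log2(RPKM + 1) and a Benjamini-Hochberg adjusted p under 0.05 over the 12659 genes tested. At that threshold limma called 68.4% of all genes tested, 38.4% as higher and 30.0% as lower, so a call by itself was common. With libraries scaled to the same median those shares were 31.2% higher and 37.1% lower, and the calls of the 9 genes did not change. In such bulk libraries fewer cells of a type cannot be told apart from less RNA per cell. The median log2 fold change of the 9 genes was -0.57, beside 0.06 over all genes tested. Groups did not overlap in RPKM for 7 of the 9 genes and for 72.7% of all genes tested. All 9 genes passed the filter on low values.

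**Figure D1:**
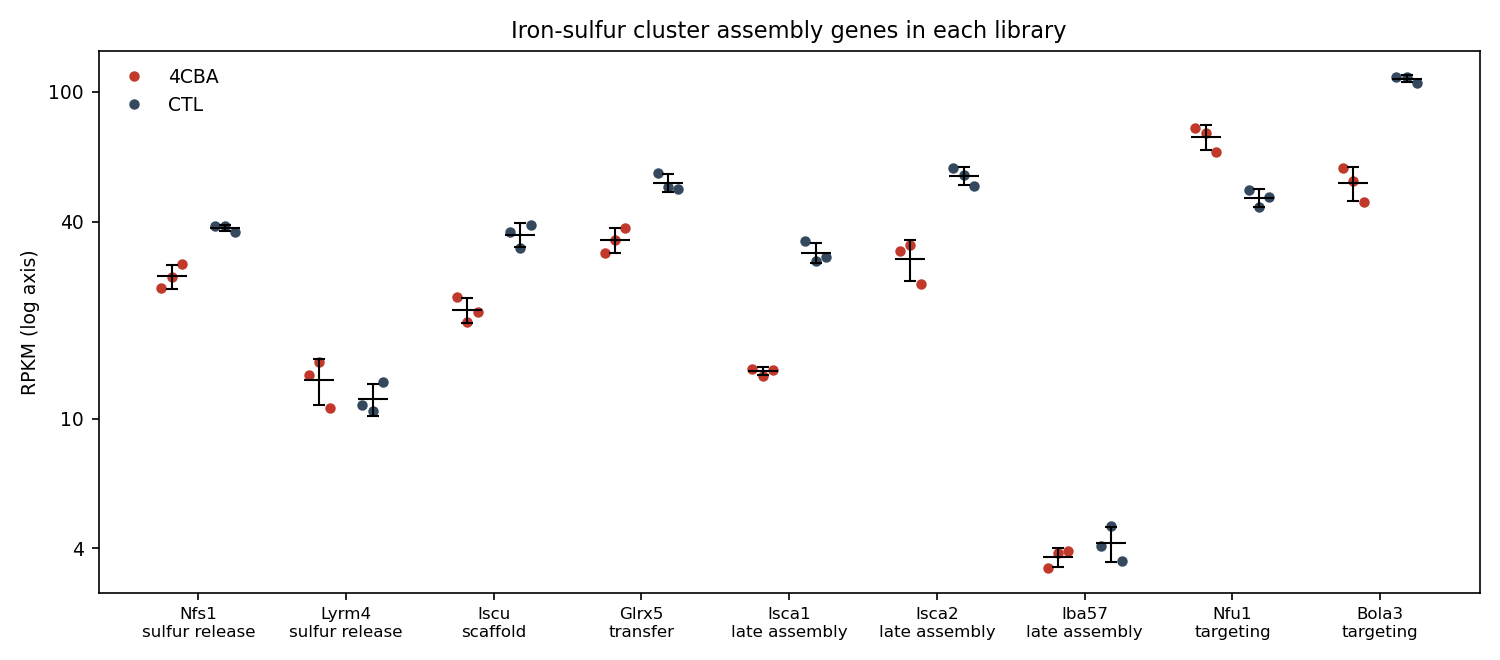
RPKM on a log axis of the 9 iron-sulfur cluster assembly genes, ordered by role, in 3 4CBA libraries (red, left) and 3 CTL libraries (dark blue, right). Points are libraries, and bars give the mean and SD. The 4CBA points lie below the CTL points for 6 genes, above them for Nfu1, and among them for Lyrm4 and Iba57.

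Promoter letters are shown for the genes that carried the ETS letters CCGGAAG, a core recognised by ETS family factors such as GABP, which are known for their sites at genes of mitochondrial proteins. Windows reached from 250 bases before to 50 after each RefSeq start (GRCm38.p6), both strands were searched, and 8 of the 9 genes matched an entry. These genes had 10 windows. The letters were present in 3 of them, for Nfs1, Isca2 and Isca1, and in 11.6% of 21263 windows of all protein-coding promoters. Stretches of 30 bases are printed on the strand of the gene, with the ETS letters in capitals in either orientation.
Nfs1, chr2:156144172-156144201, minus strand: CTTCCGGagcacagcgcagttaCTTCCGGg
Isca2, chr12:84773230-84773259, plus strand: tctcccctcctCCGGAAGcccaggctaggc
Isca1, chr13:59769987-59770016, minus strand: ccgtgtccccaCTTCCGGggggtctgtcgt

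The RefSeq start used for a window can differ from the start of the gene span given for each gene in this text. For Nfs1 it lies 16 bases and for Isca2 40 bases inside that span, and for Isca1 both are the same. The 2 matches of Nfs1 began 15 bases before and 7 bases after the RefSeq start, so both lie inside the gene span. The match of Isca2 began 29 bases before the RefSeq start and 11 bases inside the gene span, and that of Isca1 began 216 bases before its start. The motifs GCGCATGC, TGATGNAA and TGACGTCA, each searched on both strands, were in 0 of the windows of the 8 genes, and in 3.52%, 3.60% and 2.23% of all windows in that order. The windows of 2 of the 8 genes, Nfu1 and Iba57, do not reach the start of the gene span, which lies 602 and 822 bases upstream of the RefSeq start used. A match is a string of letters and was not measured as a bound site.

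Sulfur release is the first step. Nfs1 encodes the cysteine desulfurase and lies on chromosome 2 at chr2:156123637-156144202, minus strand (GRCm38, the mm10 build of the files). Its level was 25.1, 27.2 and 29.7 RPKM in 4CBA libraries, against 39.0, 38.8 and 37.3 RPKM in CTL libraries. All 4CBA values lay under all CTL values. The means were 27.3 ± 2.31 RPKM in 4CBA libraries and 38.4 ± 0.905 RPKM in CTL libraries (SD, n = 3 each), 28.8% lower in 4CBA. The log2 fold change was -0.48 (SE 0.06, limma adjusted p = 3.92e-05).

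Lyrm4, also called ISD11, encodes the small protein that stabilizes the desulfurase and lies at chr13:35978797-36117357, minus strand. Its level was 13.6, 14.9 and 10.8 RPKM in 4CBA libraries, against 11.0, 10.5 and 12.9 RPKM in CTL libraries. The groups overlapped, since the third 4CBA library was below most CTL values. The log2 fold change was 0.17 with a 95% interval of -0.08 to 0.42 (limma adjusted p = 0.199). Without 4CBA replicate 3 it was 0.29 and passed the test (limma adjusted p = 0.0144), so the call on Lyrm4 depends on 1 library. The desulfurase and its partner thus had different calls, and the difference between them was not tested.

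The scaffold Iscu, at chr5:113772418-113778288 on the plus strand, encodes the protein on which the cluster is first assembled. Its level was 23.6, 19.8 and 21.1 RPKM in 4CBA libraries, against 37.3, 33.2 and 39.1 RPKM in CTL libraries. The 2 groups were well apart, with the highest 4CBA library below the lowest CTL library. Means were 21.5 ± 1.91 RPKM in 4CBA libraries and 36.6 ± 3.01 RPKM in CTL libraries (SD, n = 3 each), 41.2% lower, with a log2 fold change of -0.74 (SE 0.08, limma adjusted p = 4.17e-06).

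Glrx5 encodes the monothiol glutaredoxin that takes the cluster from the scaffold, and it lies at chr12:105032618-105040911, plus strand. Its level was 32.1, 35.3 and 38.4 RPKM in 4CBA libraries, against 56.6, 51.1 and 50.4 RPKM in CTL libraries. No 4CBA library reached the CTL range. The means were 35.3 ± 3.12 RPKM in 4CBA libraries and 52.7 ± 3.38 RPKM in CTL libraries (SD, n = 3 each), 33.1% lower, with a log2 fold change of -0.57 (SE 0.07, limma adjusted p = 2.11e-05).

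Isca1, Isca2 and Iba57 act together in the late steps that make the larger cluster. Isca1 (chr13:59755415-59769789, minus strand) had the lowest log2 fold change of the 9 genes. Its level was 14.2, 13.5 and 14.1 RPKM in 4CBA libraries, against 34.9, 30.4 and 31.3 RPKM in CTL libraries. The 4CBA libraries were close together and far under the CTL range. Means were 13.95 ± 0.385 RPKM in 4CBA libraries and 32.2 ± 2.37 RPKM in CTL libraries (SD, n = 3 each), 2.31-fold lower in 4CBA, with a log2 fold change of -1.15 (SE 0.06, limma adjusted p = 1.77e-08).

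Isca2 (chr12:84773230-84775089, plus strand) encodes the partner of ISCA1. Its level was 32.7, 34.0 and 25.8 RPKM in 4CBA libraries, against 58.6, 55.9 and 51.7 RPKM in CTL libraries. The third 4CBA library was the lowest, and the groups did not overlap. Isca2 was 44.3% lower, at 30.8 ± 4.37 RPKM in 4CBA libraries and 55.4 ± 3.48 RPKM in CTL libraries (SD, n = 3 each), with a log2 fold change of -0.83 (SE 0.10, limma adjusted p = 2.41e-05).

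Iba57 (chr11:59155368-59164567, minus strand), which encodes the folate-binding partner of both ISCA proteins, had the lowest level of the 9 genes in every library. It had 3.48, 3.88 and 3.94 RPKM in 4CBA libraries, against 4.08, 4.70 and 3.67 RPKM in CTL libraries. The groups overlapped and the log2 fold change was -0.11 with a 95% interval of -0.32 to 0.10 (limma adjusted p = 0.329). About 139 reads, a number inferred from how low RPKM values step, lay behind its shallowest value, a counting error of 8.48%.

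Nfu1 and Bola3 both encode proteins that act in handing the cluster to its recipients, and in humans a lack of either is known to impair lipoate-dependent enzymes. Their levels moved in opposite directions. Nfu1 (chr6:87009234-87028461, plus strand) had 77.5, 75.1 and 65.7 RPKM in 4CBA libraries, against 50.2, 44.3 and 47.6 RPKM in CTL libraries. Every 4CBA library was above every CTL library. Nfu1 was 1.54-fold higher, at 72.8 ± 6.28 RPKM in 4CBA libraries and 47.4 ± 2.96 RPKM in CTL libraries (SD, n = 3 each), with a log2 fold change of 0.61 (SE 0.07, limma adjusted p = 1.12e-05). The RPKM table and the table of log2 values list different transcripts of Nfu1, and it was higher in both.

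Bola3 (chr6:83349147-83360136, plus strand) had 58.6, 53.3 and 46.2 RPKM in 4CBA libraries, against 111, 111 and 107 RPKM in CTL libraries. It was the most abundant of the 9 genes in CTL libraries, and the groups were far apart. Bola3 was 2.08-fold lower, at 52.7 ± 6.20 RPKM in 4CBA libraries and 109.7 ± 2.73 RPKM in CTL libraries (SD, n = 3 each), with a log2 fold change of -1.05 (SE 0.08, limma adjusted p = 2.2e-07).

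**Figure D2:**
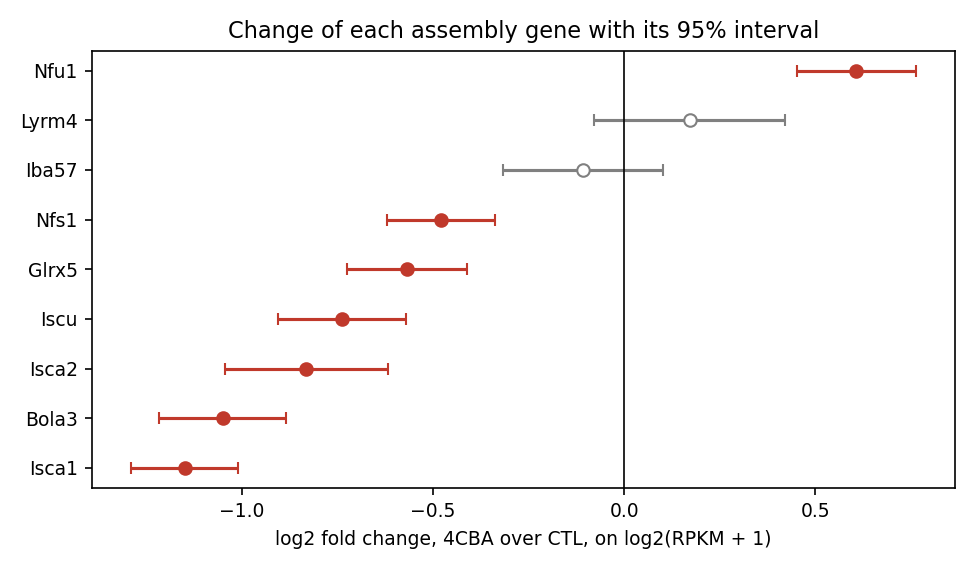
Log2 fold change of each assembly gene, 4CBA over CTL, on the log2(RPKM + 1) scale, with its 95% interval. Filled red points passed the limma test and open grey points did not. Nfu1 lies right of 0 at 0.61, the intervals of Lyrm4 and Iba57 cross 0, and the other 6 genes lie between -1.15 and -0.48.

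The order of levels differed between the groups. In 4CBA libraries the order from high to low was Nfu1, Bola3, Glrx5, Isca2, Nfs1, Iscu, Isca1, Lyrm4 and Iba57, and in CTL libraries it was Bola3, Isca2, Glrx5, Nfu1, Nfs1, Iscu, Isca1, Lyrm4 and Iba57. Some neighbours in these orders had overlapping values. In 4CBA libraries these were Glrx5 with Isca2, Isca2 with Nfs1, and Isca1 with Lyrm4. In CTL libraries they were Isca2 with Glrx5, Nfs1 with Iscu, and Iscu with Isca1. Nfu1 was therefore first in 4CBA libraries, with no overlap with Bola3, and below Bola3, Isca2 and Glrx5 in CTL libraries. This order rests on the length of the transcript listed per gene, 950 bases for Nfu1 and 2312 bases for Bola3. Estimated reads in 4CBA libraries were 848, 771 and 672 for Nfu1, against 1558, 1330 and 1150 for Bola3. The shares of the sum and the Nfu1 to Bola3 ratio given below rest on those lengths too.

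Summed over the 9 genes, the level was 280.9, 277.0 and 255.7 RPKM in 4CBA libraries, against 403.0, 380.1 and 380.6 RPKM in CTL libraries. Nfu1 made up 27.6%, 27.1% and 25.7% of that sum in 4CBA libraries, against 12.5%, 11.7% and 12.5% in CTL libraries. Bola3 made up 20.8%, 19.2% and 18.1% of it in 4CBA libraries, against 27.6%, 29.2% and 28.0% in CTL libraries. Thus the summed level was lower in every 4CBA library while the share held by Nfu1 was higher.

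Ratios within a library compare partners without dependence on depth. The Isca1 to Isca2 ratio was 0.435, 0.398 and 0.547 in 4CBA libraries, against 0.596, 0.545 and 0.607 in CTL libraries. The ranges overlapped slightly, and the mean log2 ratio differed by -0.35 (two-sided exact permutation test, p = 0.2). The Glrx5 to Bola3 ratio was 0.549, 0.663 and 0.830 in 4CBA libraries, against 0.508, 0.460 and 0.473 in CTL libraries. These did not overlap, and the mean log2 ratio differed by 0.48 (two-sided exact permutation test, p = 0.1). The Nfs1 to Iscu ratio was 1.06, 1.37 and 1.40 in 4CBA libraries, against 1.04, 1.17 and 0.955 in CTL libraries, a difference of 0.27 (two-sided exact permutation test, p = 0.2). With 3 libraries against 3 the smallest p that test allows is 0.1, and adjusted over the 3 ratios each p was 0.2, so none passed. The Nfu1 to Bola3 ratio was chosen after its values were seen and was not tested. It was 1.32, 1.41 and 1.42 in 4CBA libraries, against 0.451, 0.399 and 0.447 in CTL libraries.

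**Figure D3:**
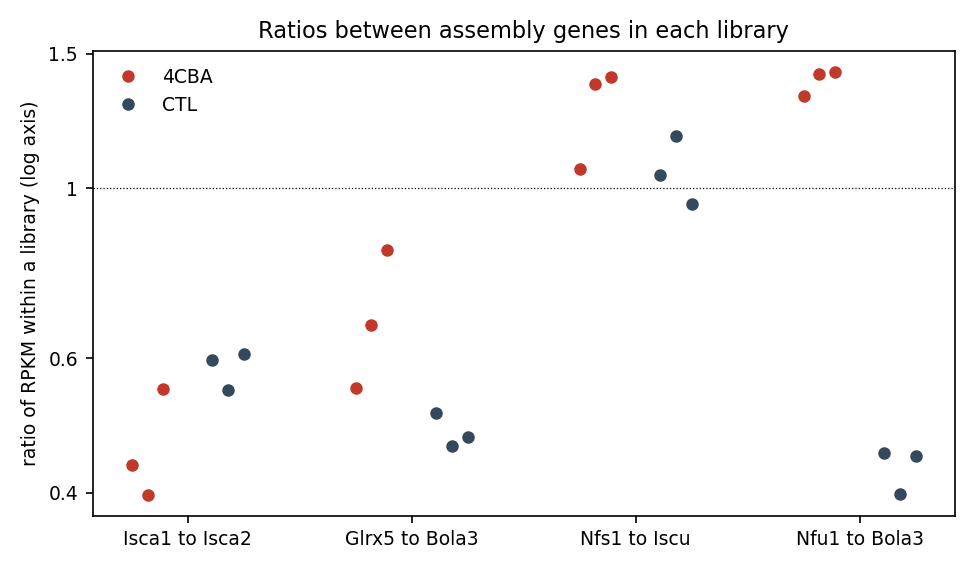
Ratio of RPKM between partner genes within each library, on a log axis, in 4CBA (red, left) and CTL (dark blue, right) libraries. The Nfu1 to Bola3 ratio is between 1.32 and 1.42 in 4CBA libraries and between 0.399 and 0.451 in CTL libraries, while the Isca1 to Isca2 and Nfs1 to Iscu ratios overlap between groups.

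The rest of the mitochondrial assembly pathway moved in both directions. Of 14 other genes tested, 6 were higher in 4CBA libraries, 4 were lower and 4 did not pass, with a median log2 fold change of 0.11. Over all genes tested 38.4% were higher and 30.0% lower, and these counts are close to those shares. With libraries scaled to the same median 3 of the 14 were higher and 4 lower. With the deposited log2 values 4 were higher and 4 lower. Slc25a37, which encodes an iron importer of the mitoferrin type, was highest of them by log2 fold change. It had 11.9, 12.4 and 12.3 RPKM in 4CBA libraries, against 4.00, 4.05 and 4.95 RPKM in CTL libraries. This was a 2.81-fold difference (log2 fold change 1.31, limma adjusted p = 5.08e-08). The other mitoferrin gene of the list, Slc25a28, had means of 26.4 RPKM in 4CBA libraries and 26.6 RPKM in CTL libraries. Its log2 fold change was -0.006 (limma adjusted p = 0.931). The cochaperone Hscb, which with the chaperone Hspa9 moves the cluster off ISCU, had 33.4, 31.4 and 25.4 RPKM in 4CBA libraries, against 17.2, 18.6 and 19.4 RPKM in CTL libraries, without overlap (log2 fold change 0.67, limma adjusted p = 6.45e-05). Hspa9 was 1.29-fold higher (log2 fold change 0.37, limma adjusted p = 0.000157). The electron carrier Fdx1 had a log2 fold change of -0.60 (limma adjusted p = 4.74e-05). Ndufab1, which encodes the acyl carrier protein bound by LYRM4, was lower at 1.47 ± 0.178 RPKM in 4CBA libraries and 4.21 ± 0.840 RPKM in CTL libraries (SD, n = 3 each, log2 fold change -1.06, limma adjusted p = 1.01e-05). Its log2 fold change was -0.68 in the deposited log2 values and -1.44 with a pseudocount of 0.1, both past the test. The ferredoxin Fdx1l passed the test (log2 fold change 0.25, limma adjusted p = 0.0111), but with libraries scaled to the same median it gave 0.14 and did not. Leaving out CTL replicate 1 also ended the call for Fdx1l, at a log2 fold change of 0.175. The deposited log2 values did so too, at 0.167 (limma adjusted p = 0.0975). Ferredoxin reductase Fdxr had a log2 fold change of 0.03 (limma adjusted p = 0.716).

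Cytosolic assembly, which builds clusters for enzymes outside mitochondria, had 3 genes higher, 2 lower and 6 not past the test of 11. Over all genes tested 38.4% were higher and 30.0% lower. With libraries scaled to the same median 3 of the 11 were higher and 4 lower. The electron donors Ciapin1, at 39.9 ± 1.02 RPKM in 4CBA libraries and 21.4 ± 0.644 RPKM in CTL libraries (SD, n = 3 each), and Ndor1 had log2 fold changes of 0.87 and 0.54. The glutaredoxin Glrx3 and the targeting factor Ciao1 had log2 fold changes of -0.54 and -0.44. All 4 passed the limma test, with adjusted p-values from 4.41e-08 for Ciapin1 to 0.000811 for Glrx3.

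Most mitochondrial recipients of clusters were lower. Of 15 genes for mitochondrial cluster proteins, 0 were higher, 14 were lower and 1, Fech, did not pass, with a median log2 fold change of -1.17. The shares over all genes tested were 38.4% higher and 30.0% lower. The complex I subunit Ndufs1 had 51.4, 49.4 and 46.9 RPKM in 4CBA libraries, against 157, 142 and 145 RPKM in CTL libraries (log2 fold change -1.57, limma adjusted p = 5.52e-10). No 4CBA value of Ndufs1 came near the CTL range. Fech, the last enzyme of haem synthesis, had a log2 fold change of 0.12 (limma adjusted p = 0.106), and without CTL replicate 1 it passed as higher (0.17, limma adjusted p = 0.0418). Aconitase Aco1, also the iron regulatory protein, was 2.13-fold lower (limma adjusted p = 6.26e-09) among 22 cytosolic and nuclear cluster proteins. Of these 22, 7 were higher, 10 lower and 5 not past the test. With libraries scaled to the same median 5 of them were higher and 11 lower. In that list the xanthine oxidase gene Xdh (log2 fold change 0.55) and aldehyde oxidase Aox1 (0.47) were higher and the DNA glycosylase Mutyh (-0.62) was lower, with limma adjusted p-values of 3.69e-06 for Xdh, 0.00144 for Aox1 and 0.000105 for Mutyh.

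Of 12 lipoic acid genes, which make or carry the cofactor that depends on lipoyl synthase, 1 was higher, 10 were lower and 1 did not pass, with a median log2 fold change of -0.66. The shares over all genes tested were 38.4% higher and 30.0% lower. Lipoyl synthase Lias had 18.4, 19.6 and 17.7 RPKM in 4CBA libraries, against 28.5, 25.0 and 27.5 RPKM in CTL libraries, 1.46-fold lower (log2 fold change -0.52, limma adjusted p = 2.27e-05). The glycine cleavage carrier Gcsh was 3.35-fold lower and the oxoglutarate dehydrogenase subunit Dlst 2.38-fold lower (limma adjusted p = 9.5e-10 for Gcsh and 1.88e-09 for Dlst), while the branched-chain dehydrogenase subunit Dbt had a log2 fold change of 0.28 (limma adjusted p = 0.0013, and 0.16 with an adjusted p of 0.0232 after scaling to the same median). Nfu1, higher in 4CBA libraries, was thus in the opposite direction to most of the genes whose proteins depend on the cofactor it helps to make.

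**Figure D4:**
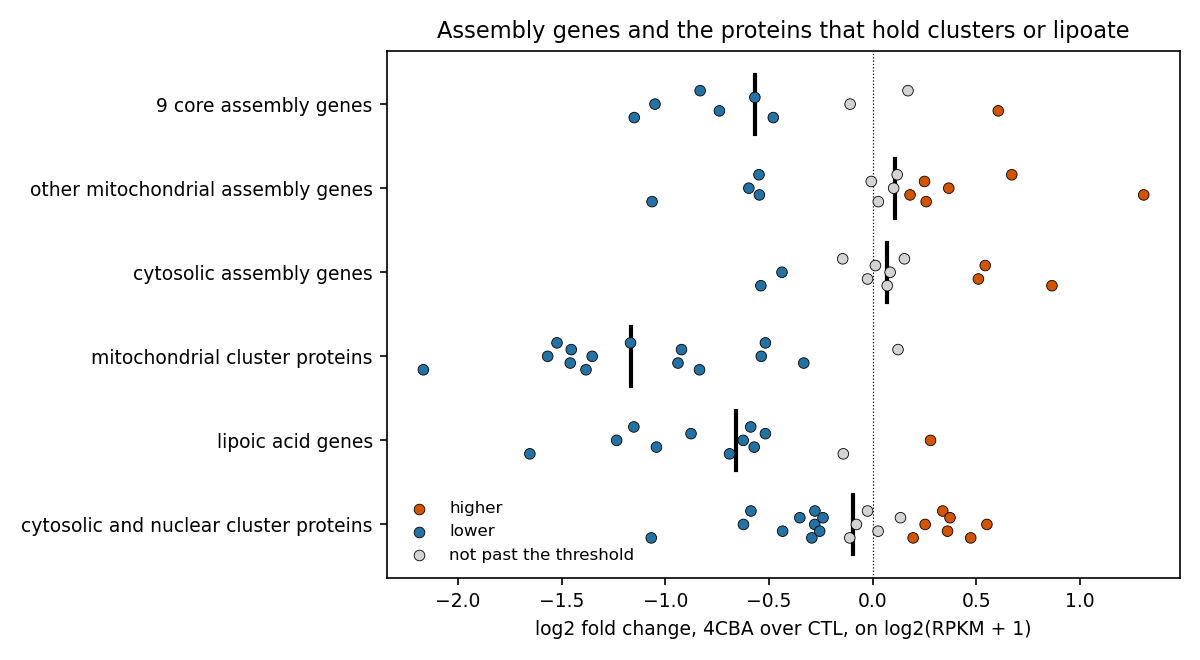
Log2 fold change of each gene, 4CBA over CTL, on the log2(RPKM + 1) scale, in the 9 core assembly genes and 5 related lists. Orange points were higher and blue points lower by the limma test, grey points did not pass it, and black bars are medians. The medians are -0.57 for the 9 genes, 0.11 for other mitochondrial assembly genes, and -1.17 for mitochondrial cluster proteins.

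Of the 9 genes, 6 have another gene that starts on the opposite strand within 1000 bases of their own start, by GENCODE on GRCm38. Only neighbours with deposited expression values were counted. This set was chosen after the files were seen. For Nfs1 it is Romo1, a mitochondrial inner membrane protein, with a start 147 bases inside Nfs1 and overlapping spans. Romo1 had 79.5, 96.5 and 78.9 RPKM in 4CBA libraries, against 169, 166 and 165 RPKM in CTL libraries (log2 fold change -0.97, limma adjusted p = 2.88e-07). For Isca1 it is the antisense RNA Etohd2, which starts 313 bases inside Isca1 and had a log2 fold change of -0.01 (limma adjusted p = 0.877), while Isca1 itself was at -1.15. Fars2, the mitochondrial phenylalanyl-tRNA synthetase, starts 114 bases inside Lyrm4 and was lower (-0.41, limma adjusted p = 0.000391), where Lyrm4 did not pass. Npc2 lies 99 bases upstream of Isca2, Sart3 238 bases upstream of Iscu and Snhg10 409 bases upstream of Glrx5, with log2 fold changes of -0.31, -0.20 and -0.52, all lower by the limma test (adjusted p = 0.000191 for Npc2, 0.0152 for Sart3 and 0.00131 for Snhg10). So 5 of the 6 neighbours were lower and 1 did not pass, beside 30.0% lower over all genes tested. No source used here says whether counting took strand into account, so reads in the overlaps of Romo1, Etohd2 and Fars2 with Nfs1, Isca1 and Lyrm4 may not be told apart.

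**Figure D5:**
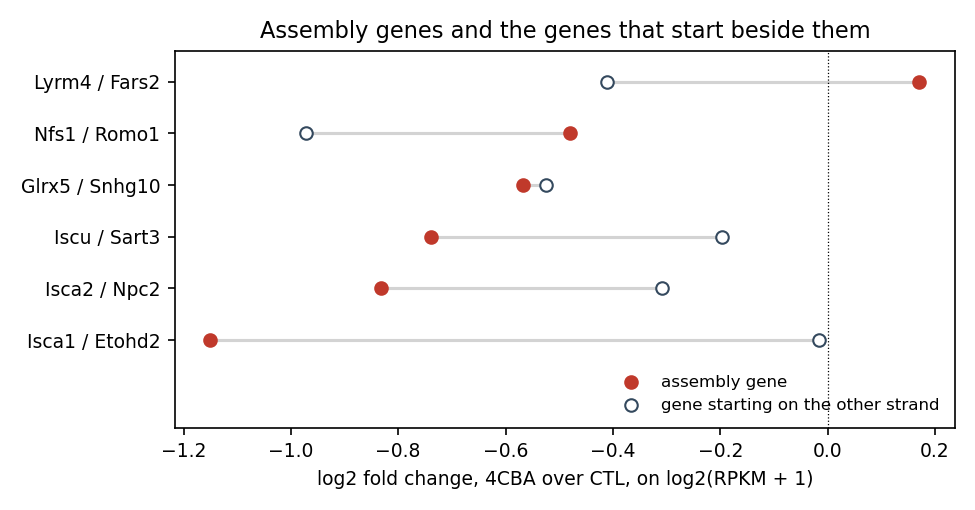
Log2 fold changes, 4CBA over CTL, on the log2(RPKM + 1) scale, of 6 assembly genes (filled red) and the gene that starts within 1000 bases on the other strand (open blue), joined by a line. The pair of Glrx5 and Snhg10 lies close together at -0.57 and -0.52, and the pair of Isca1 and Etohd2 lies apart at -1.15 and -0.01.

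Libraries had an estimated 9390000 to 12220000 reads, with Pearson correlations of 0.992 to 0.993 within groups and 0.911 to 0.917 between groups, across genes. The brown adipocyte marker Ucp1 had 1.90, 2.13 and 2.36 RPKM in 4CBA libraries, against 38.8, 33.7 and 31.5 RPKM in CTL libraries. All 8 listed adipocyte markers were lower, with log2 fold changes from -3.51 to -0.58 and a median of -1.43. Their summed level was 4500 to 5710 RPKM in 4CBA libraries and 9690 to 10200 RPKM in CTL libraries. Most of that sum was Fabp4, at a mean of 4846 RPKM in 4CBA libraries and 8620 RPKM in CTL libraries. Of 6 preadipocyte and fibroblast markers tested, 5 were lower, with a summed level of 33.5 to 35.5 RPKM in 4CBA libraries and 174 to 202 RPKM in CTL libraries, and Dpp4 was listed at 0. Macrophage markers summed to 0.239 to 0.809 RPKM in 4CBA libraries and 0.553 to 0.735 RPKM in CTL libraries with Adgre1, Ptprc and Itgam at 0, endothelial markers to 0.214 to 0.457 RPKM in 4CBA libraries and 0.078 to 0.164 RPKM in CTL libraries with Cdh5 at 0, and skeletal muscle markers to 4.00 to 5.37 RPKM in 4CBA libraries and 0.219 to 0.335 RPKM in CTL libraries, where Acta1 passed as higher (log2 fold change 2.08) and Myod1, Myog and Myh1 were at 0. The part of these markers in the changes of the 9 genes was not tested.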

How the data were processed

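Brown adipocytes of 6 libraries (3 4CBA, 3 CTL) were compared. Per the submitters' processing notes and file headers, reads were aligned with STAR to mm10 and counted over exons with HOMER, with no versions stated. The authors deposited RPKM values for 1 transcript per gene, and the command in the header names 24 libraries, of which 6 are columns. They also deposited log2 values made by DESeq2 processing, and in the same table their own fold changes and p-values, which were not used. Neither table holds counts, so sequencing depth was inferred from how RPKM values of lowly expressed genes step, and 71.9% to 74.6% of values per library came within 0.1 of a whole read. Counting errors cover counting only.

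The test covered genes that reached 0.5 RPKM in 3 or more libraries and was made with limma 3.58.1 (trend and robust) in R 4.3.3 on log2(RPKM + 1), which understates changes of low genes. P-values were Benjamini-Hochberg adjusted over all 12659 genes tested, with a threshold of 0.05. Ratios within libraries were tested with exact permutation in Python 3.11.15 with numpy 2.4.6, and their p-values were adjusted with scipy 1.17.1. The code was tested on simulated data. Named genes were the 9 genes, the partners Hscb, Hspa9, Fdx1l, Fdxr, Aco1 and Lias, Ucp1, and per list the 2 largest called changes in each direction with a mean of at least 1 RPKM in the higher group. Some genes that the rule names are not reported here. Fech, Acta1, Slc25a28 and the neighbouring genes were added after their values were seen. Members and lists were chosen with earlier results of these data known. Promoters were taken from RefSeq on GRCm38.p6 and neighbours from GENCODE vM21. Alternatives were another pseudocount, other filters, the replicate block, scaling to the same median, the deposited log2 values, no robust estimation, and leaving out each library.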

Additional observations from a re-analysis of the deposited data

How the results depend on the processing

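Across 13 alternatives (12 for Iba57, which is not tested with a minimum of 5 RPKM) the 7 called genes kept their direction and their call, Iba57 stayed without a call, and Lyrm4 was called only without 4CBA replicate 3. Scaling libraries to the same median shifted the median of all genes by -0.10 on the log2 scale and gave 3950 genes higher and 4693 lower, where the unscaled values gave 4860 higher and 3804 lower. Under that scaling 3 other mitochondrial assembly genes were higher, with Fdx1l and Gfer among those that lost their calls, and 4 cytosolic assembly genes were lower, with Nubp2 and Narfl added. Of the cytosolic and nuclear cluster proteins 5 were then higher and 11 lower, and with 1 library left out 8 to 9 were lower. Leaving out 1 library at a time gave 1 to 2 of the 9 genes higher and 6 lower, 0 to 1 mitochondrial cluster proteins higher, 8109 to 8390 genes called, and differences in log2 ratio from -0.48 to -0.26 for Isca1 to Isca2, from 0.33 to 0.63 for Glrx5 to Bola3 and from 0.20 to 0.40 for Nfs1 to Iscu. Of 295 values of 23 other named genes, 8 lost their call and 0 calls reversed. Fdxr, which had no call, changed sign in some settings. It was -0.081 with libraries scaled to the same median, -0.032 with the deposited log2 values and -0.005 without 4CBA replicate 1. Deviations from the group means correlated at -0.067, -0.033 and -0.027 between groups for same-numbered libraries, and at -0.004 to 0.036 for differently numbered ones. Such values do not settle whether the libraries were paired. With the replicate number as a block 8499 genes were called, and no count of the 9 genes or of the lists changed. By estimated reads the shallowest values of the 9 genes rested on 139 reads for Iba57, 205 for Iscu and 242 for Lyrm4.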
